A study of Mus musculus with 18 samples.

Results

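The libraries labelled Stiff-TW were compared with the libraries labelled Soft, 3 against 3, to ask which genes of the stiff matrix lay at the soft level when TW was present and which did not. These 6 libraries are all those with either label, out of 18 in the series, and 12245 of the 18397 genes in the table had enough counts to be tested. The other 2 groups of the series, whose labels add the word mito, were not compared. They entered the shared fit only, through its filter on low counts, its scaling and its estimate of spread. All libraries are labelled RAW264.7, a macrophage-like mouse line derived from an Abelson virus tumour, and no genotype, agent dose, culture time or stiffness value is given in the labels. Soft is the soft matrix alone, Stiff is the stiff matrix alone, and Soft-TW and Stiff-TW are the same 2 matrices with a condition that the labels call TW and do not spell out. Stiff-TW and Soft differ in matrix and in TW together, so other comparisons are given beside many results. They are Stiff against Soft, Stiff-TW against Stiff and Soft-TW against Soft, and not every result has all of them. These comparisons share their Soft or Stiff libraries and are not independent of each other.

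Cells on a stiff substrate pull on it through integrins and focal adhesions, and the tension is known to change the activity of the regulators YAP and TAZ and of metabolism. Several of the gene groups described here have a known master regulator. Atf4 is the transcription factor of the integrated stress response and drives genes of amino acid synthesis, amino acid import and tRNA charging. HIF drives glycolysis and the hypoxia genes, SREBP drives cholesterol synthesis, and NRF2 drives glutathione and antioxidant genes.

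The depth was even, with totals of 16346260 to 16362240 estimated counts in Soft and 16331498 to 16377561 in Stiff-TW. Several markers went against the label of the cells. Only 10 of the 19 markers listed for macrophages and myeloid cells had enough counts to be tested, and Csf1r, the receptor that defines the lineage, had 0.03, 0.08 and 0.05 TPM (transcripts scaled to a fixed library total, a level per length) in Soft and 0.27, 0.45 and 0.21 in Stiff-TW. Adgre1, which encodes F4/80, was listed at 0 in the 3 Soft libraries. Other members of that list were present, with Cd14 at 27.6, Cd68 at 5.9 and Lyz2 at 5.59 TPM in Soft. The keratins Krt8 and Krt18 stood at 703 and 307 TPM in Soft, with vimentin (Vim) at 2166, while Epcam and Cdh1 were at or near 0. No cell type is assigned here, and the cells are called by their group labels. The labels do not say whether replicate libraries came from separate cultures, so p-values rest on the spread among these libraries alone. Their common biological coefficient of variation was 0.0175, small enough for minor differences to pass.

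Stiff-TW differed from Soft in 8804 genes at an adjusted p under 0.05 (71.9% of the genes tested), 4622 higher (37.7%) and 4182 lower (34.2%). At least 2-fold differences were found for 833 genes (6.8%), of which 615 were higher (5.02%) and 218 lower (1.78%). The median log2 fold change over all genes tested was 0.02. With library totals in place of TMM scaling the median moved by -0.0876, and higher genes made up 42.1% of the changed ones in place of 52.5%. TPM is not scaled by TMM, so a TPM ratio of Stiff-TW to Soft lay below the fitted fold change by a median of 0.13 on the log2 scale (-0.13 over 10171 genes). Small differences are therefore given from the fit. On TMM-scaled counts the Soft and Stiff-TW libraries did not overlap in 73.6% of the genes tested, and the ranges of single genes given from here on are in TPM.

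The genes of the stiff matrix were those that differed at least 2-fold between Stiff and Soft at an adjusted p under 0.05, 320 in all (2.61% of the genes tested), with 172 higher in Stiff (1.4%) and 148 lower (1.21%). In Stiff-TW, 9 of the 320 were back at the soft level, meaning that the 95% interval of the difference from Soft lay within 0.322 on the log2 scale, a ratio of 5 to 4, either way. That interval was met by 34.7% of all genes tested. Another 185 were still on the stiff side of Soft, 21 had passed to the other side of it, and 105 could not be resolved. Without Soft replicate 1, 12 had passed Soft. Of the 105 unresolved genes 102 had a mean under 5 CPM (counts scaled to a fixed library total), where the intervals are wide.

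Among the 83 stiff-matrix genes with a mean of at least 5 CPM, 9 were back at the soft level, 61 were still on the stiff side, 10 had passed Soft and 3 were unresolved. Of the 61, 41 had moved towards Soft relative to Stiff, 7 did not pass the test of Stiff-TW against Stiff, and 13 lay farther from Soft than Stiff did. The 60 that were higher in Stiff had a median log2 fold change against Soft of 1.21 in Stiff and 0.68 in Stiff-TW. The 23 that were lower in Stiff had medians of -1.22 and -0.45. Both medians were nearer to Soft in Stiff-TW than in Stiff, and neither was at it.

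**Figure D1:**
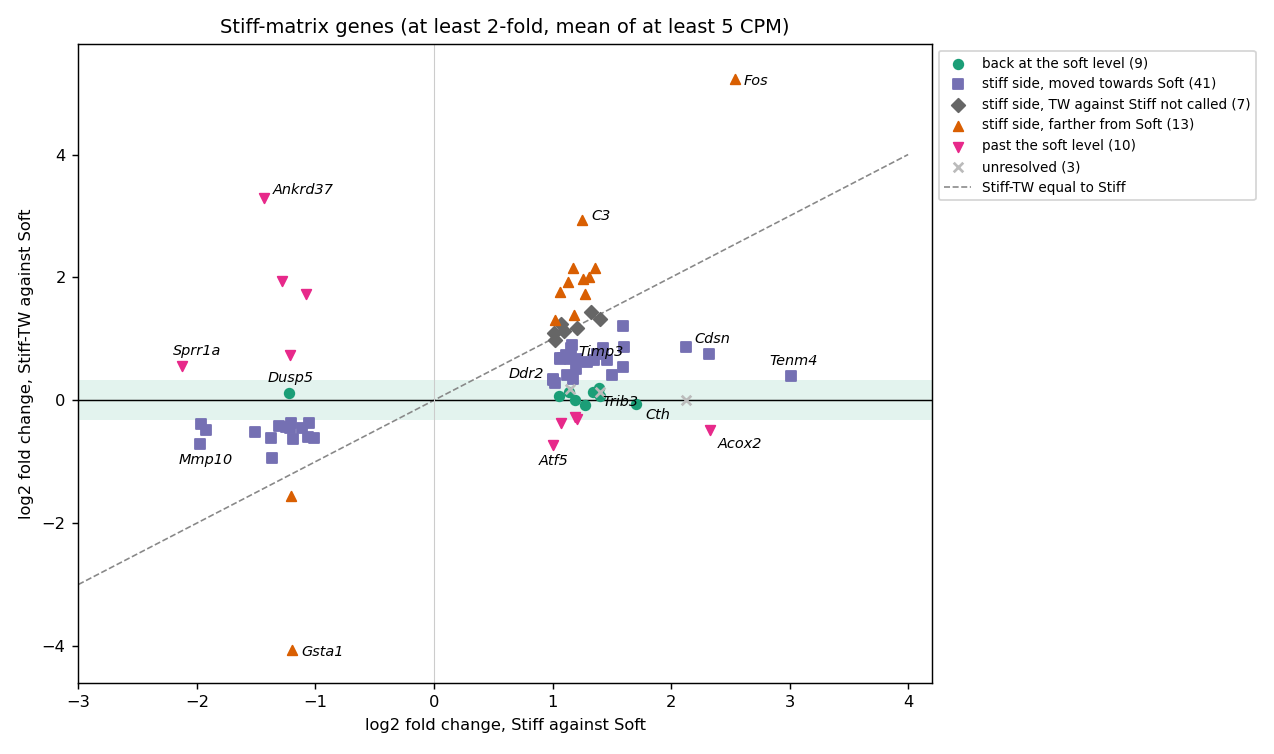
Each point is 1 of the 83 stiff-matrix genes with a mean of at least 5 CPM, with the log2 fold change of Stiff against Soft on the x axis and of Stiff-TW against Soft on the y axis; the band marks 0.322 either side of Soft, the dashed line marks equal levels in Stiff and Stiff-TW, and n is 3 libraries a group. Of the points, 9 are back at the soft level, 61 stay on the stiff side and 10 pass Soft, with Fos and Gsta1 at the extremes.

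The genes that were back at the soft level included enzymes and carriers of amino acid metabolism. Cth (chr3:157894248-157925081, GRCm38.p6 as for all positions here), the enzyme that makes cysteine from cystathionine, had 17.7, 20.8 and 17.4 TPM in Soft, 53.6, 59.4 and 59.9 in Stiff and 16.2, 16.9 and 15.8 in Stiff-TW. The Stiff libraries stood above all others. The Stiff-TW libraries lay below the Soft ones in TPM but overlapped with them on TMM-scaled counts, at a log2 fold change of -0.06 ± 0.0756 (SE, n = 3 and 3) that did not pass the test (adjusted p = 0.462, edgeR). Slc7a5, the large neutral amino acid carrier, had 67.9, 66.2 and 70.7 TPM in Soft, 146, 137 and 142 in Stiff and 70.0, 67.6 and 67.7 in Stiff-TW, with ranges in Soft and Stiff-TW that overlapped in TPM and did not on TMM-scaled counts. Gpt2, the mitochondrial alanine transaminase, had a log2 fold change of 1.05 in Stiff and 0.07 ± 0.041 in Stiff-TW against Soft. These 3 genes were lower in Soft-TW than in Soft, at log2 -0.70 for Cth, -0.56 for Slc7a5 and -0.51 for Gpt2. Their Stiff-TW level was thus near that of Soft and above that of Soft-TW.

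Trib3, a pseudokinase induced by stress, had 96.3, 98.2 and 91.6 TPM in Soft, 228, 228 and 231 in Stiff and 96.1, 97.8 and 94.2 in Stiff-TW, and its Soft-TW libraries stood at 96.0, 91.3 and 95.4. Stard5, a sterol-binding protein, went from a log2 fold change of 1.39 in Stiff to 0.19 in Stiff-TW. The 3 genes Trib3, Slc7a5 and Stard5 were within that margin of Soft yet passed the test as slightly higher (log2 0.14, 0.13 and 0.19), a call that was lost with library totals (0.05, 0.05 and 0.10, adjusted p = 0.123, 0.18 and 0.141). For Stard5 the call was also lost without Stiff-TW replicate 1 (log2 0.15, adjusted p = 0.0686). Ank2, an ankyrin of the membrane skeleton, and Paqr3, a Golgi membrane protein, completed the named genes that were higher in Stiff and back in Stiff-TW. Against Soft, Soft-TW was at log2 -0.36 for Ank2, -0.23 for Stard5 and -0.10 for Paqr3, of which Paqr3 did not pass. Dusp5, a phosphatase that inactivates ERK, was the sole gene of the opposite kind, with 10.4, 13.4 and 10.6 TPM in Soft, 4.62, 4.25 and 5.14 in Stiff and 11.3, 11.7 and 11.2 in Stiff-TW. Its Soft-TW libraries stood above all of these, at 19.8, 19.7 and 20.9 TPM. Without Soft replicate 2, which had the highest of these Soft values, Dusp5 passed as higher in Stiff-TW (log2 0.25, adjusted p = 0.0248).

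The margin decided some of these places. Stard5 was the last gene inside it, with an upper bound of 0.3216 against a limit of 0.322 on the log2 scale. Just outside lay Ddr2 (0.3306), Slc9a9 (0.3501), Psph (-0.36 at its lower bound), Cyb5r1 (-0.38) and Serpinf1 (0.3943), of which Slc9a9 was unresolved. With a margin of 1.1-fold no gene was back, and with 1.5-fold 26 were. When genes that differed at least 1.5-fold between Stiff and Soft were taken (849, 6.93%), 79 were back.

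Enzymes of amino acid and one-carbon synthesis under Atf4 lay near the soft level in Stiff-TW as a group. Of 14 tested, 13 were higher in Stiff than in Soft (29.1% of all genes were) and 0 were lower, with a median log2 fold change of 0.88. All 14 were lower in Stiff-TW than in Stiff (34.1% of all genes were), with a median of -0.70. Against Soft, 7 were higher and 4 lower in Stiff-TW, and the median was 0.06, or -0.02 with library totals. Of all genes tested 37.7% were higher and 34.2% lower in Stiff-TW than in Soft, and these shares stand beside every list below. Soft-TW had 2 higher and 9 lower than Soft, with a median of -0.44. Of 13 genes changed by the matrix, 8 were back, 4 were on the stiff side and 1 had passed Soft. Of all 6588 genes changed by the matrix at any size (53.8% of those tested), 2432 were back. In list counts, here and below, genes changed by the matrix are of any size. Back then means within the margin of Soft in Stiff-TW. It need not be a return, since a small change in Stiff can lie within that margin too.

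Asns, which makes asparagine, had 213, 209 and 203 TPM in Soft, 383, 373 and 376 in Stiff and 199, 199.7 and 197 in Stiff-TW. Its Stiff-TW libraries lay just below the Soft ones in TPM, and the fit gave log2 0.06 ± 0.0257 (adjusted p = 0.0295), which is smaller than the shift of -0.0876 between TMM and library totals, so no direction is drawn. Soft-TW was below both at 144, 137 and 143 TPM. Psat1 of serine synthesis lay at 0.04 in Stiff-TW, from 0.55 in Stiff. Phgdh, the enzyme that opens the serine pathway, and Psph, which closes it, ended slightly below Soft at -0.23 and -0.27. Aldh1l2, a mitochondrial folate enzyme, stayed well above Soft, with 36.5, 35.7 and 35.6 TPM in Soft, 106, 107 and 105 in Stiff and 60.1, 59.2 and 59.8 in Stiff-TW, and the ranges did not overlap. The proline enzymes Aldh18a1 and Pycr1 also stayed higher, at 0.42 and 0.74.

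The Atf4 response element was looked for in the promoters of the Atf4 lists as TGATGNAA on both strands, within the 300 bases that run from 250 before to 50 after each annotated start (RefSeq, GRCm38.p6). Of 33 genes of the 3 Atf4 lists with such a window, 10 (30.3%) held it, against 4.51% of all 27025 genes with a window. A match is a run of letters and was not shown here to be a bound site. The stretches before the starts of Asns and of Slc7a11, the cystine carrier, are shown because these genes ended in different places, at the soft level and well below it. Capitals mark the element in either orientation, and the Slc7a11 stretch lies at an annotated start inside the longest annotated span of that gene.
Asns, chr6:7693210-7693268, minus strand: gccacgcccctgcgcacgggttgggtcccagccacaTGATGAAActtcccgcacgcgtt
Slc7a11, chr3:50443617-50443696, minus strand: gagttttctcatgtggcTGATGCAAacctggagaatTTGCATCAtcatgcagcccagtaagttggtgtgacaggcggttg

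Most amino acid carriers under Atf4 passed Soft, with 6 of the 9 changed by the matrix on its other side and 2 back. Of 11 tested, 8 were higher and 1 lower in Stiff (24.7% of all genes were lower). In Stiff-TW 1 was higher and 9 were lower than Soft, with a median of -0.38. Soft-TW had 0 higher and 9 lower than Soft, with a median of -0.34. Slc7a11 had 106, 99.4 and 98.8 TPM in Soft, 112, 109.5 and 107 in Stiff and 38.6, 37.7 and 36.04 in Stiff-TW, and every Stiff-TW library lay below every Soft library. Its log2 fold change in Stiff-TW was -1.32 ± 0.0235, and Soft-TW lay between at -0.65. Its partner chain Slc3a2 went from 0.52 in Stiff to -0.34 in Stiff-TW, and the glutamine carrier Slc38a2 was lower in both, at -0.14 and -0.54.

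Cytosolic aminoacyl-tRNA synthetases, which charge tRNAs, were likewise mostly higher in Stiff and mostly at or under Soft in Stiff-TW. In Stiff 15 of 19 were higher and 3 lower than Soft, with a median of 0.43. In Stiff-TW 3 were higher and 12 lower than Soft, with a median of -0.11. Of the 18 changed by the matrix, 11 were back at the soft level and 4 had passed it. Soft-TW had 2 of 19 higher and 15 lower than Soft, with a median of -0.25. Lars, for leucine, had 139, 131 and 133 TPM in Soft, 244, 249 and 254 in Stiff and 103, 103 and 101 in Stiff-TW, so that its Stiff-TW libraries lay under the Soft ones. Vars, for valine, was the member that kept its stiff level, at 0.43 in Stiff and 0.48 in Stiff-TW.

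The regulators of the same stress response did not move as a block. In Stiff 14 of 15 were higher than Soft and none lower, whereas in Stiff-TW 5 were higher and 5 lower than Soft, with a median of 0.002156. That median has no stable sign, since it was negative with RLE (-0.0178), library totals (-0.0853) and a fit of 3 groups (-0.0193), and without Soft replicate 1 (-0.0367), Stiff-TW replicate 1 (-0.0132) or Stiff-TW replicate 2 (-0.07). Atf5, a factor of the mitochondrial stress response, had 148, 152 and 151 TPM in Soft, 299, 283 and 278 in Stiff and 82.6, 84.8 and 82.8 in Stiff-TW, clear of both groups and below them. Chac1, which degrades glutathione, ended lower as well (-0.71). Ddit3, which encodes CHOP, went the other way and rose further, with 146, 164 and 158 TPM in Soft, 217, 212 and 210.2 in Stiff and 264, 268 and 268 in Stiff-TW. Atf4 itself went from 0.36 in Stiff to -0.08 in Stiff-TW.

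Mitochondrial chaperones and proteases followed the pattern of the synthetases. In Stiff 8 of 14 were higher and 2 lower, and 8 of the 10 were back at the soft level in Stiff-TW, where 2 of 14 were higher and 7 lower with a median of -0.08. Lonp1, the matrix protease, had 128, 129 and 126 TPM in Soft, 225, 219 and 227 in Stiff and 129.6, 129 and 134 in Stiff-TW. Hspd1, which encodes the chaperonin HSP60, passed Soft, from 0.29 in Stiff to -0.69 in Stiff-TW.

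**Figure D2:**
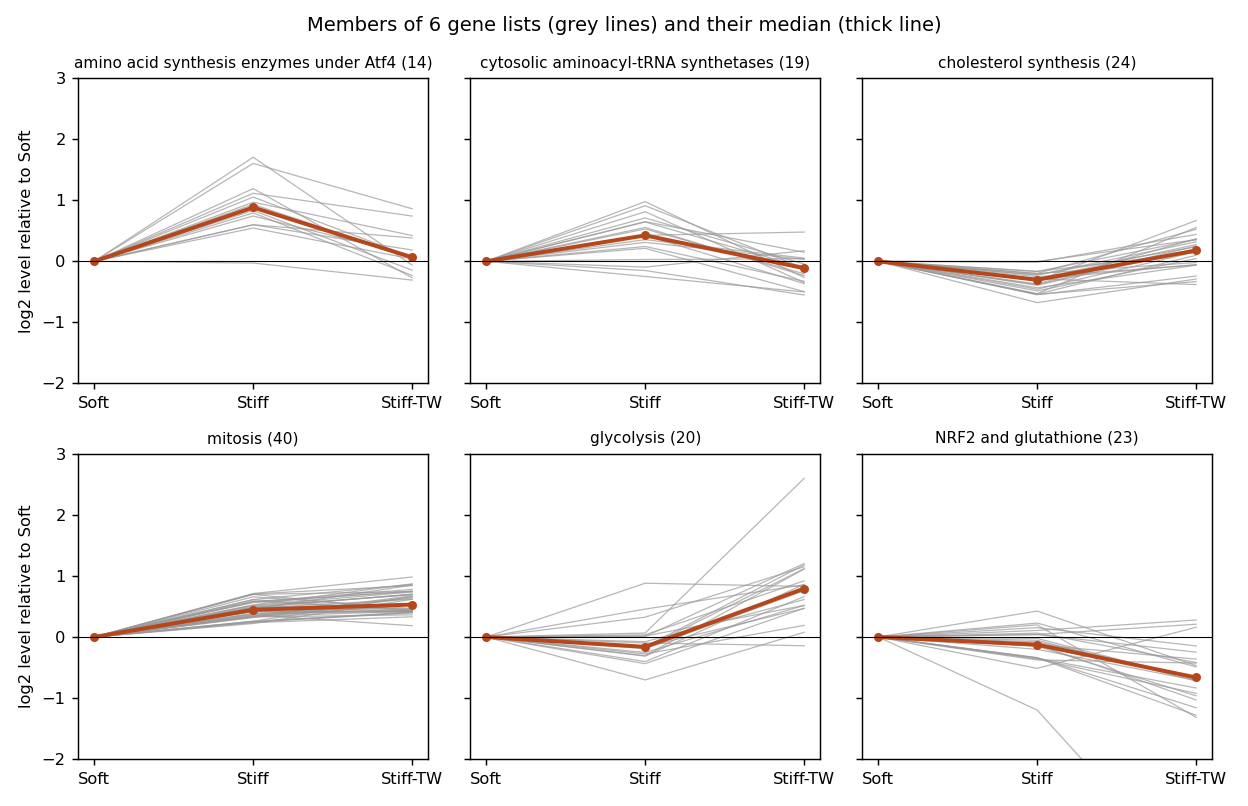
Each grey line is 1 gene of the list named above the panel and joins its log2 level relative to Soft in Soft (set to 0), Stiff and Stiff-TW; the thick line joins the list medians, the number of genes is in brackets, and Gsta1 leaves the last panel at -4.07. Amino acid enzymes and synthetases return to about 0, mitosis genes do not, glycolysis genes rise past 0 and glutathione genes fall further.

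The 41 genes that moved towards Soft without reaching it included the one raised most by the stiff matrix among genes of at least 5 CPM. Tenm4 (chr7:96171244-96911093), a teneurin of cell-cell contacts, had 1.52, 1.19 and 1.51 TPM in Soft, 10.8, 10.5 and 10.8 in Stiff and 1.77, 1.5 and 1.69 in Stiff-TW, with a log2 fold change against Soft of 3.01 in Stiff and 0.40 ± 0.0847 in Stiff-TW. The Stiff-TW libraries lay just above or inside the Soft range in TPM, and the fit placed them higher (adjusted p = 1.63e-05). Cdsn, a desmosome protein of cornified cells, kept more of the difference, with 25.2, 24.6 and 23.7 TPM in Soft, 103, 96.3 and 103 in Stiff and 41.5, 40.4 and 41.2 in Stiff-TW. Car6, a secreted carbonic anhydrase, Ogn, a matrix proteoglycan, and Rgs2, an inhibitor of G protein signals, ended at 0.76, 0.55 and 0.41. Angptl6 moved least of those named, from 1.59 to 1.20.

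On the lower side, Mmp10, the protease stromelysin 2, had 48.8, 48.7 and 48.3 TPM in Soft, 12.9, 10.7 and 11.7 in Stiff and 28.7, 23.2 and 29.1 in Stiff-TW, and the groups did not overlap. Gadd45b, a stress gene of the GADD45 family, went from -1.51 to -0.52, and Pmepa1, an inhibitor of TGF-beta signals, from -1.25 to -0.44. The placental hormone gene Prl2c2 had 5863, 5916 and 5867 TPM in Soft, 2311, 2358 and 2301 in Stiff and 4026, 3979 and 4024 in Stiff-TW. Prl2c3 and the histone gene H2ac18 moved alike, and reads of Prl2c2, Prl2c3 and H2ac18 may be shared with near-identical copies.

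Some genes kept the whole stiff difference. Timp3, the matrix-bound inhibitor of metalloproteinases, had 52.2, 49.5 and 50.5 TPM in Soft, 102, 102 and 103 in Stiff and 99.5, 101 and 103 in Stiff-TW, and Stiff-TW against Stiff did not pass (log2 0.03 ± 0.0232, adjusted p = 0.266). Casp4 (caspase 11), the growth factor Nrg1, the protease inhibitor Slpi and the glycogen-binding Stbd1 were the other named genes of this kind, at log2 values of 0.98 to 1.43 against Soft. Complement C3 went farther, with 12.1, 12.2 and 12.5 TPM in Soft, 26.4, 27.4 and 29.6 in Stiff and 87, 85.7 and 87.2 in Stiff-TW, and its Soft-TW libraries lay between at 43.1, 42.7 and 42.1. Txnip, an inhibitor of thioredoxin, and Osmr, the oncostatin M receptor, also went farther, at 2.15 and 1.92. Apart from Timp3 and C3, the genes named in this paragraph were picked after their values were seen.

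**Figure D3:**
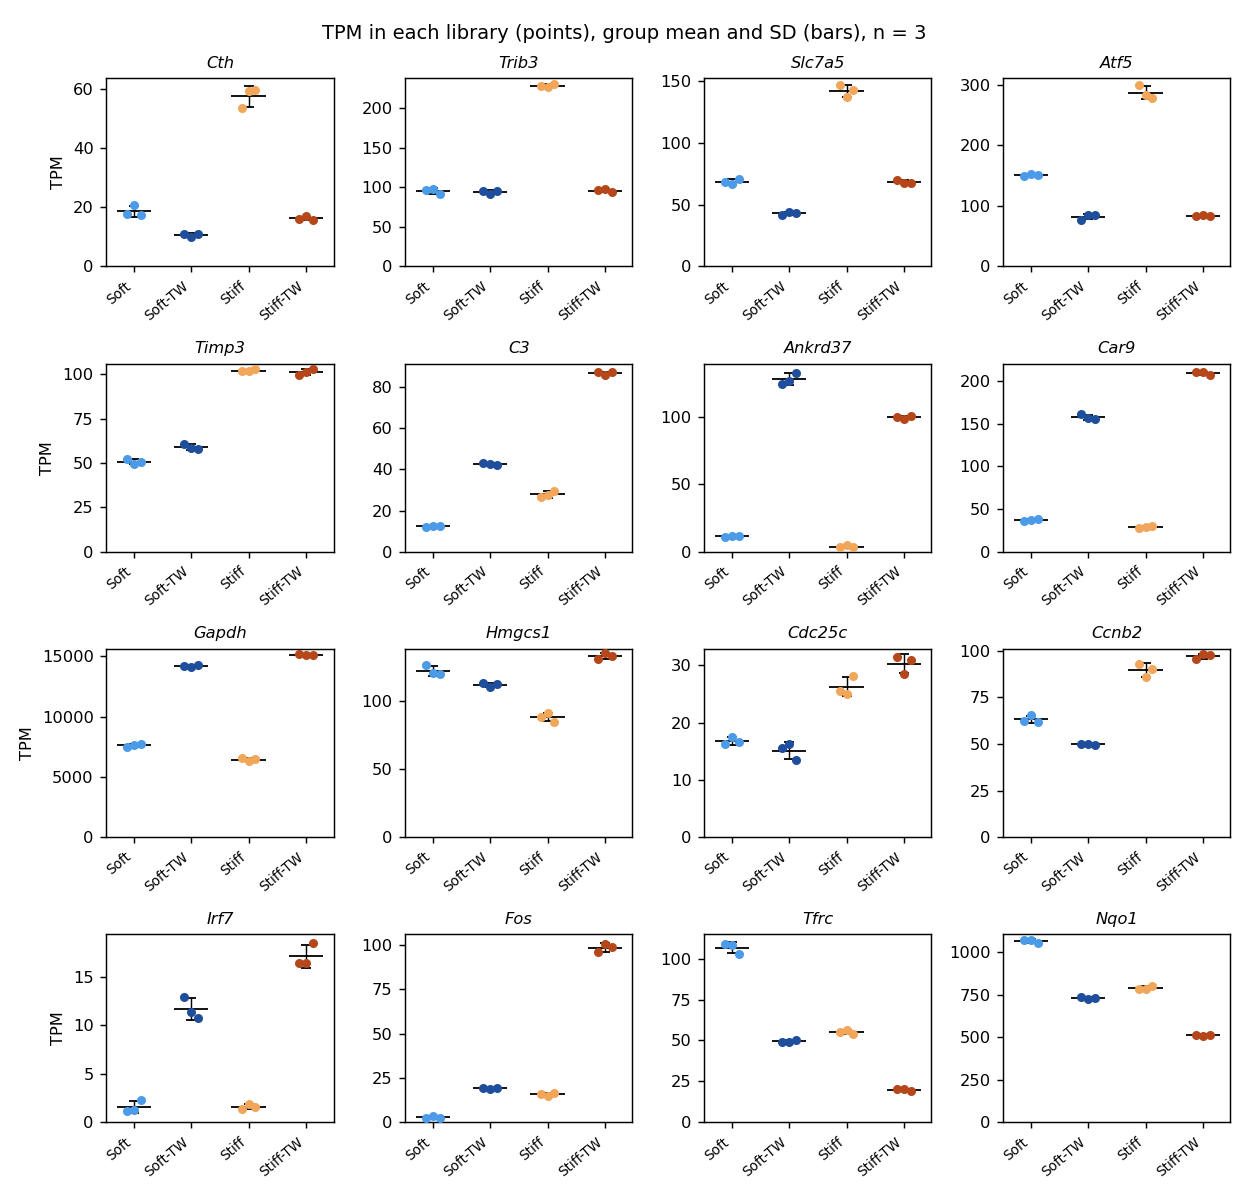
Each point is the TPM of 1 library on a linear axis from 0, and bars give the group mean and SD (n = 3) for 16 genes in Soft, Soft-TW, Stiff and Stiff-TW. Stiff-TW meets Soft for Cth, Trib3 and Slc7a5, meets Stiff for Timp3, and lies beyond both for Ankrd37, Gapdh, Irf7, Tfrc and Nqo1.

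Genes of mitosis stayed on the stiff side as a group. In Stiff-TW 40 of 40 tested were higher than Soft with a median log2 fold change of 0.53, and in Stiff 40 of 40 were higher with a median of 0.45. Relative to Stiff, 26 rose further in Stiff-TW (35.5% of all genes did) and 6 fell, and by the interval 1 of the 40 was back at the soft level. In Soft-TW, by contrast, 0 were higher and 32 lower than Soft (28.9% and 28% of all genes), with a median of -0.21. The difference between the TW responses on the 2 matrices was not tested here.

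Cdc25c, the phosphatase that activates Cdk1, had 16.2, 17.5 and 16.6 TPM in Soft, 25.6, 25 and 28.1 in Stiff and 31.5, 28.4 and 30.9 in Stiff-TW. Ccnb2, a mitotic cyclin, had 62.3, 65.5 and 61.9 in Soft, 93.0, 85.9 and 90.5 in Stiff and 95.6, 98.1 and 97.7 in Stiff-TW, against 49.7, 50.1 and 49.6 in Soft-TW. Both were higher in every stiff library than in any soft one, with or without TW. The kinesin-binding Prc1, the spindle protein Ckap2, the contractile ring protein Anln and the proliferation marker Mki67 were higher than Soft by log2 0.74, 0.78, 0.64 and 0.62. Spag5 and Tpx2 of the spindle were among the few that fell from Stiff, by log2 values of -0.26 and -0.17.

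The cell cycle genes homology region, searched as TTTGAA on both strands, was present in 25 of 34 mitosis genes with a window (73.5%) and in 20.2% of all genes. The stretch before the start of Cdc20, the activator of the anaphase-promoting complex, is shown with the match in capitals, since Cdc20 went from log2 0.35 in Stiff to 0.65 in Stiff-TW.
Cdc20, chr4:118437344-118437398, minus strand: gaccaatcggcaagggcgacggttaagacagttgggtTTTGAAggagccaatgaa

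Genes of DNA replication did not stay with those of mitosis. In Stiff 16 of 36 were higher and 11 lower than Soft. In Stiff-TW 5 were higher and 25 lower, with a median of -0.22. Soft-TW had 1 higher and 33 lower than Soft, with a median of -0.41. Pcna, the sliding clamp, had 704, 705 and 702 TPM in Soft, 489, 479 and 503 in Stiff and 341, 357 and 351 in Stiff-TW, falling at each comparison. The helicase subunit Mcm5, which did not pass in Stiff (0.07), fell to -0.56. Cytosolic ribosomal protein genes were higher in Stiff-TW in 46 of 48, with a median of 0.40 against 0.21 in Stiff, and 0 were lower. Many ribosomal protein genes have processed copies, so their counts are uncertain.

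Targets of HIF passed Soft as a group. Of 26 hypoxia genes outside glycolysis 24 were higher and 1 lower in Stiff-TW than in Soft, with a median log2 fold change of 1.35, although 20 of the 26 had been lower in Stiff. The median was 1.38 in Soft-TW. Of the 25 changed by the matrix, 0 were back at Soft, 19 had passed it and 6 lay farther on the same side.

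Ankrd37 (chr8:45996908-46000414), a small ankyrin-repeat protein induced by hypoxia, had 11.0, 11.8 and 11.3 TPM in Soft, 3.35, 4.74 and 3.4 in Stiff and 99.98, 98.5 and 100.4 in Stiff-TW, which is a log2 fold change of 3.30 ± 0.102 against Soft. Its Soft-TW libraries were higher still, at 124, 126 and 133. Car9, a carbonic anhydrase of the cell surface, had 36.3, 37.7 and 37.8 in Soft, 28.1, 29.3 and 30.5 in Stiff and 211, 210.4 and 207 in Stiff-TW, with no overlap between any pair of groups. Bnip3, a receptor for mitophagy, ranked the groups in the same way, from -0.75 in Stiff to 1.69 in Stiff-TW. Ero1a, an oxidase of the endoplasmic reticulum, stood at 240.3, 231 and 224 in Soft, 325, 327 and 329.9 in Stiff, 1458, 1458 and 1475 in Stiff-TW and 1652, 1632 and 1631 in Soft-TW, which was the highest group. Angptl4, a lipase inhibitor, was the sole member that fell (-1.43).

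Glycolysis followed, with 18 of 20 higher and 0 lower in Stiff-TW than in Soft, a median of 0.79, and 17 higher and 1 lower with library totals. In Stiff 12 had been lower and 2 higher, with a median of -0.16, and in Soft-TW 19 were higher and 1 lower, with a median of 0.80. Gapdh had 7476, 7662 and 7715 TPM in Soft, 6522, 6313 and 6452 in Stiff and 15150.0, 15106 and 15120.0 in Stiff-TW. The glucose carrier Slc2a1, the hexokinase Hk2 and the enolase Eno2 were higher than Soft by log2 1.21, 1.15 and 2.60. Eno1, the enolase that had fallen most in Stiff (-0.70), was back near Soft at 0.08 ± 0.0192, as was Pkm at 0.19.

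The core of the hypoxia response element, ACGTG on either strand, was present in 27 of 40 genes of the glycolysis and hypoxia lists with a window (67.5%), against 21.8% of all genes. It is short and overlaps with E-box letters, so the share is a description only. The stretches of Ankrd37 and Car9 are shown beside the values given above for these genes, and capitals mark the core in either orientation. The Ankrd37 stretch lies at an annotated start inside the span given above for that gene.
Ankrd37, chr8:45999851-45999894, minus strand: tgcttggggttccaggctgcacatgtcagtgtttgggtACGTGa
Car9, chr4:43506970-43507025, plus strand: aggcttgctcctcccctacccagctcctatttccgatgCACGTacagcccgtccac

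Cholesterol synthesis went from below Soft to at or above it. In Stiff 22 of 24 genes were lower and 0 higher with a median of -0.30, and in Stiff-TW 14 were higher and 5 lower than Soft with a median of 0.18, which was 0.0907 with library totals. Of the 22 changed by the matrix, 12 were back and 6 had passed Soft. On the stiff side, 3 were nearer to Soft and 1 was farther. Hmgcs1, which makes HMG-CoA, had 126, 120.2 and 119.7 TPM in Soft, 88.3, 90.6 and 84.6 in Stiff and 130.5, 135 and 133 in Stiff-TW. Mvd and Pmvk of the mevalonate steps ended highest, at 0.67 and 0.56. Idi1 stayed lower, with 211, 203 and 200.2 in Soft, 132, 136 and 129 in Stiff and 149.8, 147 and 149 in Stiff-TW. The sterol response element, searched as TCACNCCAC on both strands, was found in the window of 1 of 17 genes of this list (5.88%) and in 1.44% of all genes, and the gene was Hmgcs1.
Hmgcs1, chr13:119690178-119690257, plus strand: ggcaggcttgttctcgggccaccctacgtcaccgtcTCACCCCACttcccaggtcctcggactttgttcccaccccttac

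Other genes that passed Soft came from both sides. Sprr1a, a cornified envelope protein that the stiff matrix lowered and whose reads may be shared with related copies, had 74.9, 74.1 and 79.1 TPM in Soft, 17.4, 18.1 and 16 in Stiff and 99.1, 105 and 102 in Stiff-TW. Sox2, a transcription factor of stem cells, had 15.4, 13.7 and 14.6 in Soft, 6.37, 5.35 and 6.02 in Stiff and 21.5, 22.0 and 22.9 in Stiff-TW. Both had Stiff-TW above Soft and Stiff below it in every library. Tmprss11b, a membrane protease, and Plxna4, a semaphorin receptor, ended at 1.95 and 1.72, near their values in Soft-TW (2.00 and 1.80). In the other direction Acox2, a peroxisomal oxidase of bile acid intermediates, went from 2.33 in Stiff to -0.49 ± 0.187 in Stiff-TW, and its place below Soft was lost without Soft replicate 1 (-0.41, adjusted p = 0.0703).

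Interferon-stimulated genes were higher in Stiff-TW in 37 of 40, lower in 0, with a median of 0.97. The median was 0.25 in Stiff and 0.62 in Soft-TW. Irf7, the factor that amplifies the interferon response, had 1.17, 1.27 and 2.34 TPM in Soft, 1.37, 1.92 and 1.61 in Stiff and 16.4, 16.4 and 18.5 in Stiff-TW, so that Stiff overlapped with Soft and Stiff-TW lay above both. Rtp4, a regulator of that response, did not pass in Stiff (0.47) and was at log2 3.40 in Stiff-TW, and Dhx58, an RNA sensor, was higher in both (0.47 and 2.76). Ifitm3, an antiviral membrane protein, was higher in both, with 477, 498 and 493 in Soft, 696, 656 and 690.3 in Stiff and 873, 866 and 866 in Stiff-TW.

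The interferon-stimulated response element, searched on both strands, was present in 16 of 32 of these genes with a window (50%) and in 3.99% of all genes. Isg15, a ubiquitin-like modifier at log2 1.14 in Stiff-TW, held 3 overlapping matches, all on the opposite strand, and its stretch is shown with them in capitals.
Isg15, chr4:156200840-156200919, minus strand: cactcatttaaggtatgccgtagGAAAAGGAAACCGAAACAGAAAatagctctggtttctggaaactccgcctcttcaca

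Genes of antigen presentation on MHC class I were higher in 13 of 17 and lower in 1, with a median of 0.58, from 0.34 in Stiff. The immunoproteasome subunit Psmb8 had 40.2, 37 and 40.8 TPM in Soft, 60.7, 56.2 and 62.6 in Stiff and 100.3, 101 and 98.8 in Stiff-TW, rising at each comparison. The class I genes H2-K1, H2-D1 and H2-Q4 were higher by log2 0.82, 0.67 and 1.52, with reads that related class I genes may share. Inflammatory genes under NF-kB were higher in 24 of 31 and lower in 1, with a median of 0.63, and of 27 changed by the matrix 3 were back. The feedback inhibitors Tnfaip3 and Nfkbia were higher by 1.73 and 0.90. Within that list the chemokine Cxcl1 moved towards Soft, with 71.6, 67.4 and 71.3 in Soft, 183, 192 and 187 in Stiff and 97.6, 98.9 and 106 in Stiff-TW, and Cxcl10 ended at 0.31 ± 0.212, which did not pass.

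Summed over all 19 in the table, markers of macrophages were also higher in Stiff-TW than in Soft. Over the 10 that were tested, the median was -0.06 in Stiff, 1.35 in Stiff-TW and 2.27 in Soft-TW. In the same order the medians were 0.25, 0.97 and 0.62 for interferon-stimulated genes. They were 0.34, 0.58 and 0.17 for MHC class I, and 0.50, 0.63 and 0.41 for genes under NF-kB. Of the 10 tested markers of macrophages, 7 were higher and 0 lower in Stiff-TW. In a fit of 3 groups 6 were tested, with 4 higher and 0 lower and a median of 1.24 in Stiff-TW. The filter on low counts used all groups of a fit. Markers near 0 in Soft could therefore enter only through groups where they were higher. Neither the counts nor the medians of these markers are a test of direction, and their ranks are not set against those of the immune genes. Summed over all 19 in the table, the level was 41.39 to 43.17 TPM in Soft and 33.93 to 39.05 in Stiff. It was 59.51 to 61.38 in Stiff-TW and 95.68 to 100.8 in Soft-TW. Lyz2, Cd68 and Cd14 made up most of the sum, 3 markers were at 0 in every Soft library and none was at 0 in every Stiff-TW library. Laptm5, a lysosomal protein of blood cells, had 0.05, 0 and 0 TPM in Soft and 0.76, 0.63 and 0.72 in Stiff-TW. The part of these cells in the immune results was not tested. In bulk RNA, fewer cells of a type and less RNA per cell cannot be told apart.

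Immediate early genes respond within minutes to growth signals and stress. In Stiff-TW 21 of 30 were higher and 3 lower than Soft, with a median of 0.60 against -0.11 in Stiff. Soft-TW had 24 higher and 2 lower than Soft, with a median of 0.51. Fos (chr12:85473890-85477274) showed the largest rise of the named genes, with 2.37, 3.77 and 2.48 TPM in Soft, 16.2, 15.0 and 16.4 in Stiff and 95.8, 101 and 98.8 in Stiff-TW, a log2 fold change of 5.22 ± 0.116. It had 19.3, 18.8 and 19.5 in Soft-TW, close to the Stiff values. Fosb rose from 5, 4.27 and 4.44 in Soft to 54.8, 54.2 and 53.3 in Stiff-TW, and Stiff lay near Soft at 5.54, 5.44 and 6.74. Jun, Junb and the phosphatase Dusp1 were higher by log2 1.43, 1.255 and 1.254, and did not pass as higher in Stiff except Dusp1 (0.13).

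Matrix genes were higher in Stiff-TW in 23 of 26 collagens and glycoproteins and lower in 3, with a median of 0.84 against 0.21 in Stiff. Fibronectin (Fn1) had 168, 155 and 158 TPM in Soft, 302, 294 and 301 in Stiff and 375, 374 and 368 in Stiff-TW. The collagen chain Col1a2 had 24.5, 24.0 and 24.6 in Soft, 41.0, 40.6 and 39.7 in Stiff and 58.5, 60.3 and 60.3 in Stiff-TW. Both rose in Stiff and again in Stiff-TW, with no overlap between groups. Thrombospondin 2 (Thbs2) did not pass in Stiff (0.05) and higher in Stiff-TW (1.01). Among 19 proteases and inhibitors 13 were higher and 3 lower. Mmp9, a gelatinase, had 2.87, 2.36 and 2.41 in Soft, 4.28, 3.74 and 4.05 in Stiff and 23.1, 22.97 and 22.1 in Stiff-TW. Plaur, the urokinase receptor, fell through 162, 161 and 164 in Soft and 89.8, 93.3 and 94 in Stiff to 46.8, 51.0 and 50.1 in Stiff-TW.

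The tested markers of fibroblasts include the collagen chains Col1a1, Col1a2 and Col3a1, so they are not separate from the matrix genes. Of 7 tested markers 6 were higher in Stiff-TW and 1 lower, and the summed level of all 12 in the table was 14280 to 14700 TPM in Soft and 13590 to 13910 in Stiff-TW, most of it S100a4, which fell (-0.24). Vim went from 2208, 2133 and 2156 in Soft to 1419.9, 1413 and 1444 in Stiff and 4197, 4229 and 4224 in Stiff-TW. Pdgfra was higher in Stiff-TW by log2 1.17, with means of 32.3 TPM in Soft, 25.9 in Stiff and 67.3 in Stiff-TW. Vim and Pdgfra thus fell in Stiff, where Fn1 and Col1a2 rose. Krt8 and Krt18 were lower than Soft in both, at log2 -0.55 and -0.25 in Stiff-TW and -0.55 and -0.25 in Stiff. The summed epithelial markers were 999.2 to 1029 TPM in Soft and 670.8 to 682.6 in Stiff-TW. The part of cell mixture or cell state in the matrix results was not tested.

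Genes of adhesion had mixed places. Ddr2 (chr1:169972307-170110836), a collagen receptor, had 43.5, 40.6 and 42.2 TPM in Soft, 81.1, 80.4 and 78.7 in Stiff and 46.0, 47.8 and 46.8 in Stiff-TW, a log2 fold change against Soft of 1.02 in Stiff and 0.28 ± 0.0253 in Stiff-TW. The Stiff-TW libraries lay just above the Soft ones and far below the Stiff ones. Ptk2, which encodes FAK, did not pass in Stiff (0.02) and was 0.16 ± 0.0272 higher in Stiff-TW. Rhoa was at 398, 401 and 399 in Soft, 382, 369 and 379.5 in Stiff and 445, 447 and 446 in Stiff-TW, and its log2 fold change was 0.29 ± 0.0205 in Stiff-TW. Rac1 did not pass at -0.01 ± 0.0208 (adjusted p = 0.693) and passed as lower with library totals (-0.10, adjusted p = 1.66e-05). Tiam1, which activates Rac1, had estimated counts of 5, 7 and 6 in Soft, 21, 27 and 23 in Stiff and 2, 8 and 4 in Stiff-TW, too few to place it against Soft (log2 95% interval -1.32 to 0.77). Integrin and focal adhesion genes were higher in 17 of 24 and lower in 1, with a median of 0.22 against 0.003 in Stiff. Of 17 changed by the matrix at any size, 11 lay within the margin of Soft in Stiff-TW, which need not be a return. The count of lower genes was 6 and the median 0.131 with library totals, 3 were lower with RLE, and 1 to 4 were lower when 1 library was left out (4 without Stiff-TW replicate 3, 3 without Soft replicate 2 or Stiff-TW replicate 1, and 2 without Soft replicate 3).

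Genes under NRF2 lay below both matrices. Of 23 tested 3 were higher and 20 lower in Stiff-TW than in Soft, with a median of -0.66, and the medians were -0.13 in Stiff and -0.29 in Soft-TW. Nqo1, a quinone reductase, had 1071, 1071 and 1053 TPM in Soft, 786, 784 and 800.1 in Stiff and 516, 507 and 514 in Stiff-TW. Srxn1, which repairs peroxiredoxins, and Pgd of the pentose phosphate pathway fell to -1.28 and -1.16. Gsta1, a glutathione transferase, had the largest fall of the named genes, with 76.0, 66.0 and 62.9 in Soft, 29.4, 29.6 and 28.2 in Stiff and 2.85, 3.72 and 4.5 in Stiff-TW (-4.07 ± 0.196). Gsta2 fell alike, and reads of Gsta1 and Gsta2 may be shared. Hmox1, which breaks down heme, Tkt and Abcc1 were the 3 that were higher (0.16, 0.21 and 0.28). The antioxidant response element, searched as TGACNNNGC on both strands, was in 7 of 18 genes with a window (38.9%) and in 14% of all genes.

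Cytosolic heat shock chaperones were lower in 12 of 16 and higher in 3, with a median of -0.31 that was close to the -0.28 of Stiff. Hsph1 had 139, 134 and 135 TPM in Soft, 104, 104 and 102 in Stiff and 49.7, 48.4 and 47.4 in Stiff-TW, and Hsp90aa1 fell to -0.95. Hspa1b had -1.60, with reads that may be shared with its near-identical copy. Cryab, a small chaperone and 1 of the 3 that were higher, had 146, 130.2 and 141 TPM in Soft, 84.3, 78.5 and 83.7 in Stiff and 409, 421 and 418 in Stiff-TW. The heat shock element, searched on both strands, was present in 2 of 12 genes with a window (16.7%) and in 0.662% of all genes. In the endoplasmic reticulum, unfolded protein response genes were higher in 12 of 20 and lower in 4 (37.7% and 34.2% of all genes), with a median of 0.16. Among them were the chaperone Hspa5 at 0.95 and Xbp1 at 0.70.

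Tfrc (chr16:32608896-32632794), the transferrin receptor that imports iron, fell in steps through 109, 108 and 103 TPM in Soft, 55.0, 56.4 and 54.1 in Stiff and 20.2, 20.2 and 19.0 in Stiff-TW, with Soft-TW at 49.3, 49.2 and 50.5. Its log2 fold change in Stiff-TW was -2.31 ± 0.0327, and the ranges of Soft, Stiff and Stiff-TW did not overlap. Atp13a4, a P5-type ATPase, and Serpinb9b, a serpin, were also among the lowest against Soft, at -3.11 and -1.92. On the higher side, Pgf, the placental growth factor, came next after Fos among genes with a mean of at least 5 CPM, with 0.93, 0.92 and 0.91 in Soft, 1.43, 0.98 and 1.43 in Stiff and 17.2, 17.9 and 16.3 in Stiff-TW. The scavenger receptor Stab1 and the carbonic anhydrase Car12 were higher by 2.94 and 2.78.

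**Figure D4:**
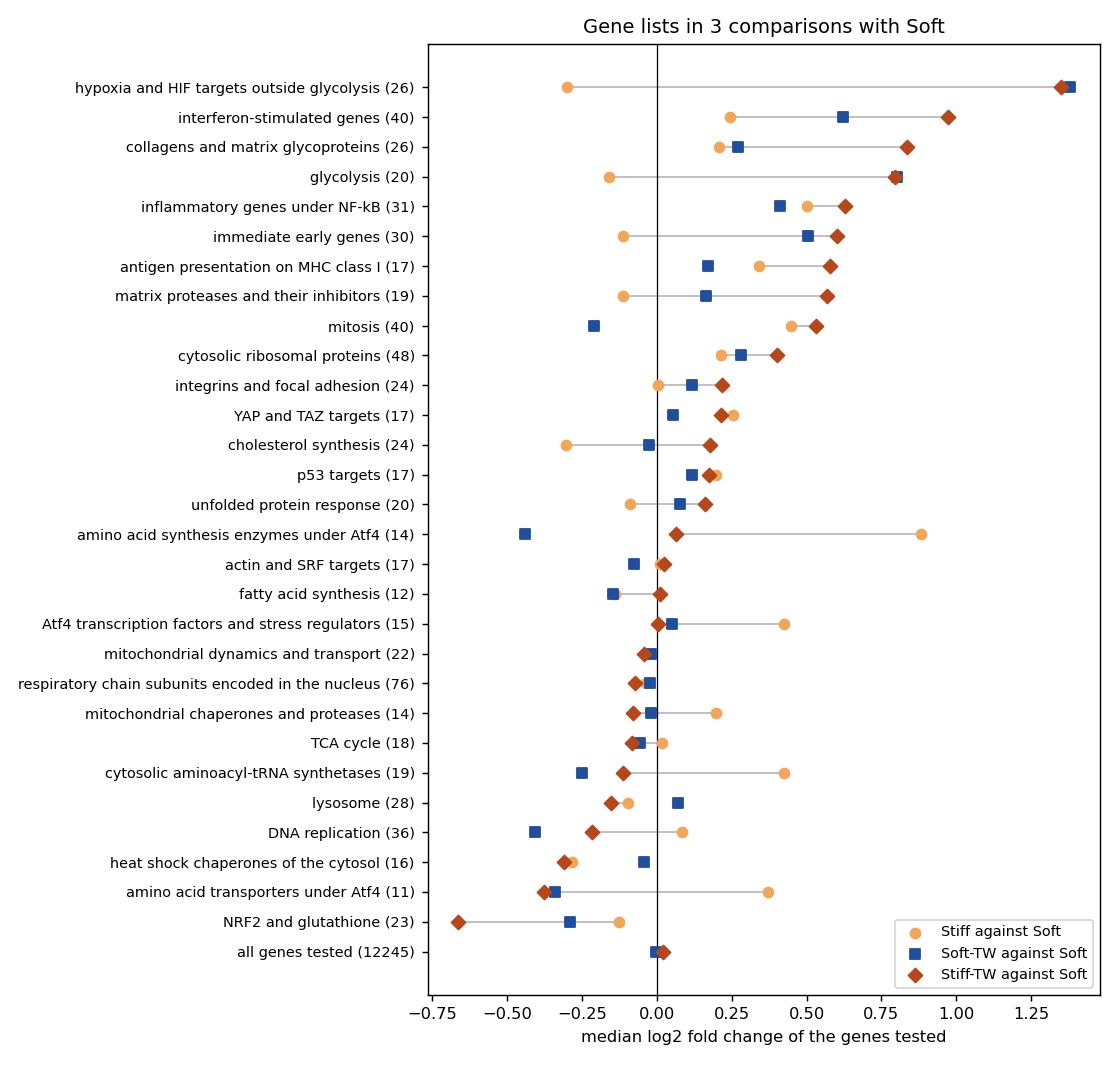
Each row is a gene list with the number of genes tested in brackets, and symbols mark the median log2 fold change of Stiff, Soft-TW and Stiff-TW against Soft, with a line from Stiff to Stiff-TW. Amino acid enzymes go from 0.88 to 0.06, mitosis stays at 0.45 and 0.53, and hypoxia genes go from -0.30 to 1.35, beside 0.01 and 0.02 for all genes.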

How the data were processed

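Poly(A) RNA had been extracted with TRIzol, made into dUTP strand-specific libraries and read as paired ends, per the labels' protocols. The authors deposited a gene table with estimated counts and TPM per library, on mm10 per the submitters' processing notes. An aligner and a counting tool, not given in the sources used here, had been run before deposit. The deposited estimated counts (10.9% not whole, tolerance 0.001) were rounded, filtered with edgeR's filterByExpr and scaled by TMM. They were then tested with edgeR's quasi-likelihood test (edgeR 4.0.16, R 4.3.3) in 1 fit of all 18 libraries, and p-values were adjusted by Benjamini-Hochberg over all 12245 tested genes. The deposited TPM values were used only to show levels. The 44 columns of averages and 36 columns of other normalized values in the table were not used.

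A stiff-matrix gene was called back when the 95% interval of Stiff-TW against Soft lay within 1.25-fold (0.322 on the log2 scale). Of the rest, genes with an adjusted p under 0.05 for Stiff-TW against Soft were placed by sign. They were on the stiff side if the sign was that of Stiff against Soft, and past Soft if it was opposite. All others were unresolved. The rule named up to 12 higher and 12 lower genes whose Soft and Stiff-TW libraries did not overlap, and up to 8 per class and direction. These had a mean of at least 5 CPM and no predicted symbols. It also named up to 4 per list by smallest adjusted p, without those limits, and always Ddr2, Ptk2, Tiam1, Rhoa and Rac1. The comparison and the 35 gene lists were chosen with earlier results of these data known, and some list members were named as examples after their values were seen. On simulated counts for this comparison (12097 genes tested), 39 of 50 genes changed 1.25-fold, 48 of 50 changed 1.5-fold and 50 of 50 changed 2-fold were recovered. The changed genes all had a mean of at least 50 counts in Soft, and 1 fixed spread was used. These rates do not cover the many stiff-matrix genes of lower counts. Some items are not reported here. Alternatives were RLE scaling, library totals, no filter, a fit of 3 groups, a replicate block, DESeq2 1.42.0, other margins and fold limits, and leaving out each library.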

Additional observations from a re-analysis of the deposited data

How the results depend on the processing

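The 8804 changed genes were 8819 with RLE scaling, 8894 with library totals, 8767 with only the Soft, Stiff and Stiff-TW libraries and 8164 with DESeq2. Leaving out 1 library gave 8468 to 8544 changed genes, with 4202 to 4474 higher and 4037 to 4298 lower, 596 to 655 at least 2-fold higher and 230 to 274 at least 2-fold lower. Without the filter on low counts, 370 genes were at least 2-fold lower and 200 stiff-matrix genes were unresolved. The class counts depended on the limits. A margin of 1.1-fold left 0 genes back and 1.5-fold gave 26. A limit of 1.5-fold for the stiff-matrix genes gave 849, with 79 back, 491 on the stiff side, 74 past Soft and 205 unresolved. With no limit on size there were 6588, with 2432, 2860, 967 and 329. A minimum of 5 CPM, chosen after seeing the data, gave 83, with 61 on the stiff side, 10 past Soft and 3 unresolved. Leaving out 1 library gave 324 to 346 stiff-matrix genes, 8 to 11 back, 173 to 201 on the stiff side, 12 to 22 past Soft and 108 to 136 unresolved, and the 12 past Soft came without Soft replicate 1. With the replicate number as a block, 8838 genes changed, and of 320 stiff-matrix genes 9 were back, 187 on the stiff side, 21 past Soft and 103 unresolved. Same-numbered libraries did not deviate together, with correlations of -0.0713 to 0.181 over 10156 genes, so the numbers were not taken as pairs. With library totals, counts within lists also moved by over 1.5 times. The unfolded protein response had 7 lower in place of 4, mitochondrial dynamics 14 lower in place of 9, and MHC class I 3 lower in place of 1. The respiratory chain had 8 higher in place of 13, and the TCA cycle and DNA replication 3 higher in place of 5 in each. Mitochondrial chaperones had 1 higher in place of 2, and amino acid carriers 0 higher in place of 1. Genes under NF-kB had 2 lower in place of 1, and interferon-stimulated and cytosolic ribosomal protein genes 1 lower in place of 0 in each. Of 2159 values of 180 named genes under 12 alternatives, 2152 kept their direction and call, 5 lost the call, 2 gained it and 0 reversed. The 7 were those given above for Stard5, Trib3, Slc7a5, Acox2, Rac1 and Dusp5. Depth limits the stiff-matrix genes under 5 CPM, where 102 of 105 unresolved genes lie.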

Other observations

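Of 76 respiratory chain subunits encoded in the nucleus 13 were higher and 34 lower in Stiff-TW than in Soft with a median log2 fold change of -0.07, and 54 lay within 0.322 of Soft by the 95% interval on the log2 scale. Cycs, which encodes cytochrome c, fell most among the named subunits, with 131, 129.8 and 136 TPM in Soft, 139, 138 and 132 in Stiff and 73.8, 73.2 and 74.1 in Stiff-TW, while Ndufv3 was higher by log2 0.70. Of 18 TCA cycle genes 5 were higher and 10 lower, with Idh2 at 0.57 and the pyruvate dehydrogenase subunit Pdhb at -0.47. Among 22 genes of mitochondrial dynamics and transport 7 were higher and 9 lower. Of all genes tested 37.7% were higher and 34.2% lower, so no shift of this list is read from its counts. Gja1, which encodes connexin 43, had 68.7, 68.6 and 70.2 in Soft, 88.0, 93.3 and 94.1 in Stiff and 179.9, 177 and 181 in Stiff-TW, the mitophagy kinase Pink1 was higher by 0.81, and the motor adaptor Trak2 was lower (-0.46).

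Lysosomal genes were lower in 18 of 28 and higher in 9, with a median of -0.15, and Ctsl, Ctsd and Lamp1 fell to -0.42, -0.44 and -0.43. Beside this list and those that follow, 34.2% of all genes tested were lower and 37.7% higher. Actin and SRF targets were split, 7 higher and 8 lower of 17, with a median near 0 that was 0.02 and turned negative with library totals (-0.07), with no filter (-0.0371) and without Stiff-TW replicate 1 or 3. Fatty acid synthesis genes stood at 6 higher and 6 lower of 12, with a median near 0 that was 0.01 and turned negative with RLE (-0.01), library totals (-0.0788), no filter (-0.00873) and a fit of 3 groups (-0.0127), and without any 1 Stiff-TW library. Targets of YAP and TAZ were higher in 12 of 17 and lower in 4, led by Ccn1, which had 62.7, 65.3 and 60.8 TPM in Soft, 103, 102 and 103 in Stiff and 204, 202 and 201 in Stiff-TW. Targets of p53 were higher in 10 of 17 and lower in 5, and the death receptor Fas had 1.89, 1.84 and 1.32 in Soft, 3.69, 3.79 and 4 in Stiff and 12.7, 9.84 and 11.2 in Stiff-TW. Endothelial markers summed to at most 0.57 TPM in the libraries compared, and lymphocyte markers to at most 2.05.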
